A study of Homo sapiens with 60 samples.

Results

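The 10 genes described here encode albumin, alpha-fetoprotein and other proteins that hepatocytes or hepatoma cells secrete or carry at their surface: ALB, AFP, TTR, TF, AHSG, RBP4, SERPINA6, FETUB, GPC3 and SPP1. They were listed by symbol, without a cut on measured values, and all 10 were found among the 60675 genes of the count table. They were measured by messenger RNA sequencing of HepG2, a widely used human liver cancer cell line. The cells were exposed for 24 h to DMSO as vehicle (3 libraries, 0.1% DMSO per the sample labels, although the series text gives a higher content) or to 1 of 8 herbal extracts at 500 (High), 100 (Medium) or 20 (Low) µg/mL. Water extracts of the formulas Sibjeondaebo-tang (SDT) and Palmul-tang (PMT) had 3 and 2 libraries a dose. Extracts in 70% ethanol of Poria Cocos, Atractylodis Rhizoma, Glycyrrhizae Radix (licorice root, here Glycyrrhiza) and Panax Ginseng had 3 libraries a dose, and those of Angelicae Gigantis Radix and Paeoniae Radix had 1. Vehicle never shared a set code of the sample descriptions with any extract, so a difference from vehicle and a difference between sets cannot be told apart. The sample labels as read here give no DMSO content for the extract libraries. A difference in solvent content from vehicle therefore cannot be told apart either. High and Low doses of 1 extract always shared a code, and their comparison uses no vehicle library. The labels do not say that replicates were separate cultures, so p-values measure the spread between these libraries, which may be technical.

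All 60 libraries held hepatocyte RNA: the summed level of 8 hepatocyte markers was 29736 to 30965 CPM (counts scaled to a common library size, here after TMM) in vehicle and 27999 to 42592 in the extracts. PTPRC, a marker of leukocytes, MS4A1, a marker of B cells, and CLEC4G, a marker of liver sinusoidal endothelium, were at 0 in every library. Fibroblast and stellate markers summed to at most 18.3 CPM. Other markers of these lists were detected. The 7 endothelial markers summed to at most 3.27 CPM, and 2 of them passed the filter on low counts. Of 8 leukocyte and macrophage markers 3 passed it, and LYZ, a macrophage marker, stood at 1252 CPM on average. The 6 biliary markers summed to 294 to 296 CPM in vehicle and 261 to 424 CPM in the extracts, with SOX9 highest at 193 CPM on average. Total counts ran from 19057280 to 33233253 per library. Mitochondrially encoded genes took 13.4% to 15.2% of counts in vehicle and up to 24.8% in the extracts. All 152 member results that passed the test still passed when those genes were left out of the scaling. TMM scaling, a trimmed mean over genes, depends little on them, so this fit cannot show whether the mitochondrial share bears on the members.

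Albumin is the most abundant protein of blood plasma and carries fatty acids, hormones and drugs. Alpha-fetoprotein takes that place in the fetus. Its gene lies beside ALB, is nearly silent in the adult liver and is transcribed again in many hepatocellular carcinomas. Hepatocytes also secrete other carriers: transthyretin (TTR) for thyroxine, RBP4 for retinol in complex with transthyretin, transferrin (TF) for iron and SERPINA6 for cortisol. AHSG and FETUB encode fetuin-A and fetuin-B, inhibitors of mineral deposition and of astacin-type proteases in that order. GPC3 encodes glypican-3, a cell-surface proteoglycan that hepatocellular carcinomas often carry and shed, and SPP1 encodes osteopontin, a secreted ligand of integrins and CD44. Hepatocyte nuclear factor 1 (HNF1) is a classical activator of ALB and AFP.

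Positions are from GENCODE release 29 on GRCh38. ALB (chr4:73397114-73421412) and AFP (chr4:73431138-73456174) are 9725 bp apart on the same strand, and SPP1 is on the same chromosome at chr4:87975650-87983426. AHSG (chr3:186612923-186621318) and FETUB (chr3:186635969-186653141) are 14650 bp apart, and both overlap the antisense gene HRG-AS1. TF (chr3:133745956-133796640) shares 112 exonic bases with SRPRB on the same strand, so part of its count could belong to either gene. RBP4 (chr10:93591687-93601744) overlaps FFAR4 on the other strand, and the strand setting of the counting is not given in the sources used here. TTR (chr18:31557010-31599021), SERPINA6 (chr14:94304248-94323394) and GPC3 (chrX:133535745-133985895) overlap no other protein-coding gene. The promoters of ALB, AFP and SERPINA6 are shown because these were the 3 of 8 matched members with the letters GTTAAT, the core of one arm of the HNF1 motif, within 150 bases before the start site (RefSeq, GRCh38.p14, written in the direction of the gene). Capitals mark these letters on either strand.
ALB, chr4:73404137-73404286, + strand: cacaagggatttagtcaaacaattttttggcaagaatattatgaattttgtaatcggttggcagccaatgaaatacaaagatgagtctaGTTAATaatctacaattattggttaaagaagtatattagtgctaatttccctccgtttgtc
AFP, chr4:73436071-73436220, + strand: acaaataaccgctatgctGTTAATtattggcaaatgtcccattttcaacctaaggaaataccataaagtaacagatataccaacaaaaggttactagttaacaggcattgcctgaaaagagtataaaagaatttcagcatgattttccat
SERPINA6, chr14:94323337-94323486, - strand: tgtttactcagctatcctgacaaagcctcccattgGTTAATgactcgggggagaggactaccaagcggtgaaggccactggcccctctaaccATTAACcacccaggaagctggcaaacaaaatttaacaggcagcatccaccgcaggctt
The match stood 61 bases before the start of ALB and 132 before that of AFP. SERPINA6 had 3 matches, at 170, 115 and 58 bases, of which the outermost is not in the stretch shown. SPP1 had 1 at 215 bases, and the windows of TF, AHSG, RBP4 and FETUB had none. The search covered 250 bases before to 50 after the start on both strands, and 6.88% of 35116 RefSeq promoter windows held a match. The motif was chosen after these sequences were seen, and a match is no measured binding site.

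In vehicle, AFP and ALB were the most abundant of the 10 messengers. Per kilobase of coding sequence, AFP stood at 7220 CPM and ALB at 6091 CPM. TF followed at 2142, AHSG at 1584, RBP4 at 952, TTR at 373, SPP1 at 341, SERPINA6 at 120 and GPC3 at 73.5 CPM per kilobase. FETUB was the lowest at 2.29 CPM per kilobase, with 34 to 98 counts per library, against 1856 counts or more for each other member. Together the 10 genes took 3.39% to 3.42% of all counts in the vehicle libraries and 2.05% to 2.08% with Glycyrrhiza at 500 µg/mL. All 10 passed the filter on low counts.

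**Figure D1:**
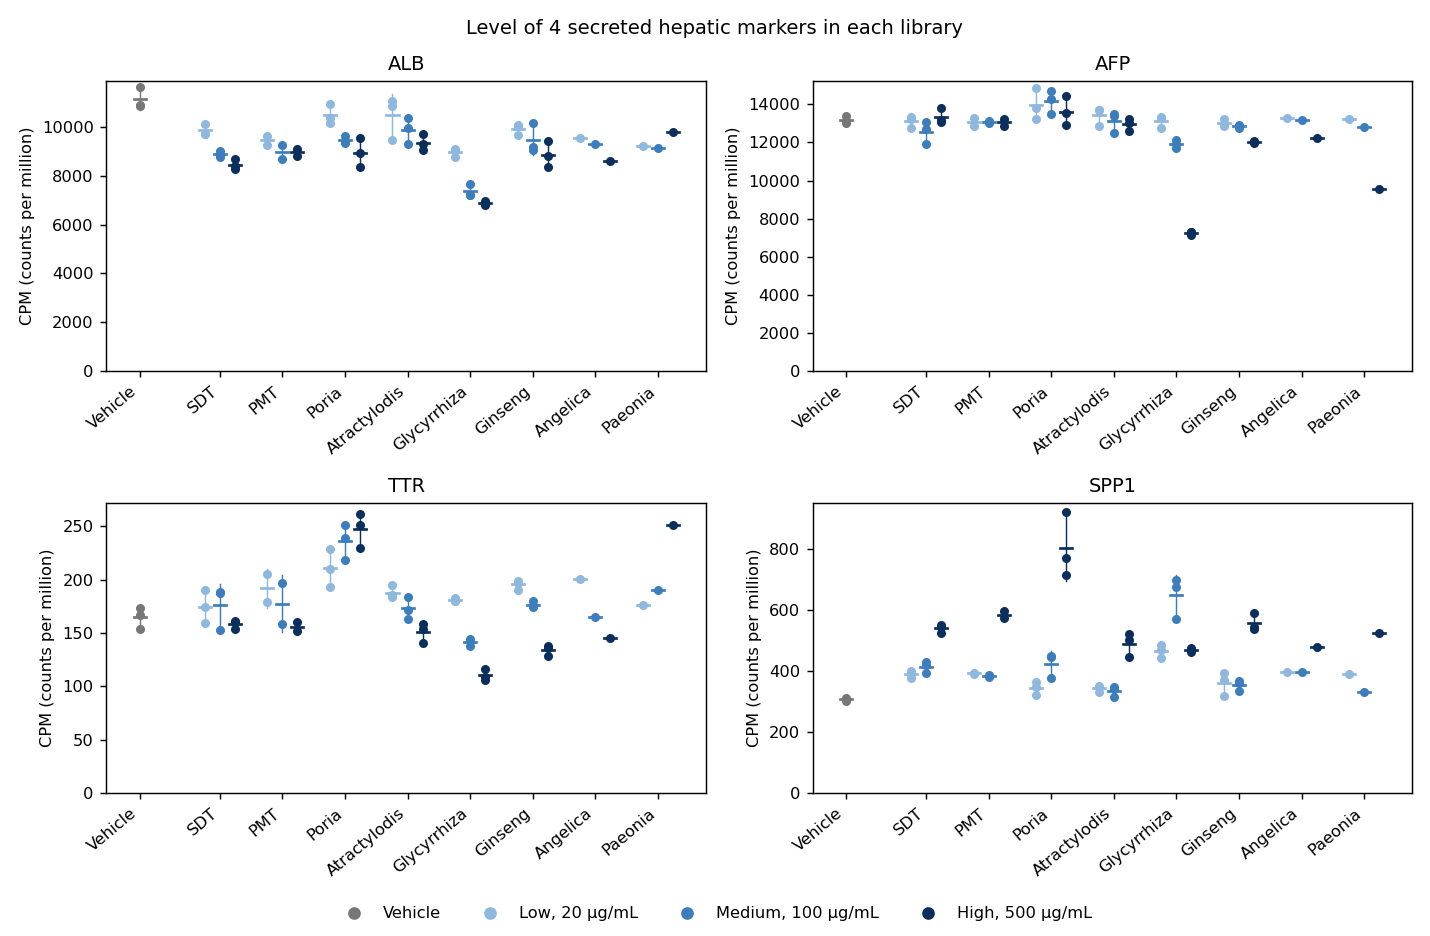
Level of ALB, AFP, TTR and SPP1 in CPM (vertical axis, from 0) for vehicle and each extract (horizontal axis), with 1 point per library, colour for dose, a dash for the group mean and a line for ± 1 SD where a group has replicates. The 3 AFP points of Glycyrrhiza High lie between 7135 and 7302 CPM, below every other library, and the 3 SPP1 points of Poria High lie between 715 and 918 CPM, above every other library.

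The comparison of 500 with 20 µg/mL asks how the markers moved with dose inside 1 extract. Glycyrrhiza changed 8 of the 10 members, with 6 lower (ALB, AFP, TTR, TF, AHSG, SERPINA6) and 2 higher (RBP4, GPC3), where 56.3% of all genes tested passed. Poria changed 7, with 5 lower (ALB, TF, RBP4, SERPINA6, FETUB) and 2 higher (TTR, SPP1), where 38.5% of genes passed. With ginseng, 5 members changed (ALB, TTR, TF and SERPINA6 lower, SPP1 higher) where 5.66% of genes passed. Atractylodis changed 4 (ALB, TTR and AHSG lower, SPP1 higher) where 6.42% passed. SDT changed 2 (ALB lower, SPP1 higher) where 1.06% passed, and PMT changed SPP1 alone, upward, where 0.516% passed. With only the groups compared in the fit, 5 members passed in Poria, 4 in ginseng, 2 in Atractylodis and 1 in SDT. Calls over all genes went from 6262 to 3977 in Poria and 922 to 909 in ginseng in that fit. They went from 1046 to 338 in Atractylodis and 173 to 102 in SDT. The member calls that ended were TTR and TF in Poria, ALB in ginseng, ALB and AHSG in Atractylodis, and ALB in SDT. A gene passed with an adjusted p under 0.05 in edgeR's quasi-likelihood test, adjusted over all 16286 genes tested. The median member difference was -0.21 in Glycyrrhiza and -0.11 in Poria on the log2 scale, against 0.0091 and -0.0033 over all genes. The mitochondrial share of counts moved with dose in these 2 extracts, with libraries at 15.1% to 17.0% at Low and 17.8% to 18.4% at High in Glycyrrhiza, and at 15.8% to 17.5% at Low and 19.7% to 22.3% at High in Poria. Every member call of both held when mitochondrial genes were left out of the scaling. Calls over all genes hardly moved in that fit (9167 to 9168 in Glycyrrhiza, 6262 to 6240 in Poria), because TMM scaling depends little on these genes. Whether the mitochondrial shift bears on the members was therefore not tested. In bulk RNA, fewer cells with a transcript and less of it per cell cannot be told apart.

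AFP fell between Glycyrrhiza Low and High to 0.552 of its level. The Low libraries held 13265, 13315 and 12759 CPM, and the High libraries held 7283, 7302 and 7135 CPM. The groups were far apart, and the difference was -0.86 (SE 0.04, adjusted p = 3.6e-23). In this comparison 15.1% of all genes tested had a larger absolute difference than AFP. That share was 20.2% for TTR, 25.0% for TF and 42.7% for ALB. Medium libraries lay between, at 11904, 11700 and 12151 CPM, and the difference of -0.14 from Low (adjusted p = 0.0343) did not pass without any 1 of the 6 libraries (adjusted p up to 0.142), with no filter on low counts (adjusted p = 0.0669) or with only the groups compared (adjusted p = 0.123). In no other extract did AFP pass between High and Low: the differences ran from -0.11 in ginseng (adjusted p = 0.086) to 0.03 in SDT. Of the 18 pairs of neighbours in the order of the 19 replicated groups by AFP level, 17 overlapped, and the exception was Glycyrrhiza High, at the bottom.

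ALB, the neighbour of AFP, moved less in Glycyrrhiza but in more extracts. With Glycyrrhiza it went from 9105, 9056 and 8777 CPM at Low to 6838, 6983 and 6811 CPM at High, with no overlap (-0.38, SE 0.05, adjusted p = 5.94e-09). In Poria it went from 10167, 10379 and 10919 to 8908, 8353 and 9547 CPM, again without overlap (-0.23, SE 0.05, adjusted p = 0.000184). Both calls held when any 1 library was left out.
The ALB calls in SDT (-0.22, adjusted p = 0.011), Atractylodis (-0.16, adjusted p = 0.0353) and ginseng (-0.17, adjusted p = 0.0354) were smaller. The SDT call ended without SDT High replicate 1 or 3 or Low replicate 2 (adjusted p up to 0.0866). The Atractylodis call ended without High replicate 1 or 3 or Low replicate 2 or 3 (adjusted p up to 0.263), and the ginseng call without Low replicate 1, 2 or 3 or High replicate 1 or 3 (adjusted p up to 0.27). With only the groups compared, none of these calls passed (adjusted p = 0.1025 in SDT, 0.138 in Atractylodis and 0.0567 in ginseng). In PMT the ALB difference was -0.08 and did not pass (adjusted p = 0.778).

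TTR, the thyroxine carrier, went in opposite directions. In Poria it was higher at High (229, 251 and 261 CPM) than at Low (193, 210.2 and 228 CPM), by 0.23 (SE 0.07, adjusted p = 0.00804), and the highest Low library stood just under the lowest High library. That call ended without Poria Low replicate 1 or High replicate 3 (adjusted p up to 0.0819) and with only the groups compared (adjusted p = 0.0617).
In Glycyrrhiza TTR fell from 179.8, 180.2 and 183 CPM to 116, 109 and 106 CPM (-0.71, SE 0.07, adjusted p = 1.27e-11). In ginseng it fell from 198, 197 and 191 to 136, 128 and 137 CPM (-0.55, SE 0.07, adjusted p = 8.41e-07), and in Atractylodis from 185, 184 and 194 to 141, 154 and 158 CPM (-0.32, SE 0.07, adjusted p = 0.00347). In these 3 extracts no High library reached the lowest Low library. PMT gave -0.30 without passing (adjusted p = 0.151), with 205 and 179 CPM at Low and 152 and 160.3 CPM at High.

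RBP4, the retinol carrier that travels bound to transthyretin, moved against TTR in both extracts that changed it. In Glycyrrhiza it rose from 483, 502 and 479.9 CPM to 566, 534 and 567 CPM (0.19, SE 0.05, adjusted p = 0.0019). In Poria it fell from 531, 509 and 556 CPM to 454, 467 and 457 CPM (-0.21, SE 0.05, adjusted p = 0.000968). The doses did not overlap in either extract, and both calls held without any 1 library. In the other 4 replicated extracts the RBP4 differences lay between -0.07 and 0.07.

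TF, the iron carrier, fell in Glycyrrhiza from 4564, 4345 and 4286 CPM to 2823, 2859.8 and 2937 CPM (-0.61, SE 0.06, adjusted p = 4.17e-12). In ginseng it fell from 4309, 4464 and 4316 CPM to 3864, 3504 and 3569 CPM (-0.26, SE 0.06, adjusted p = 0.00512). Both sets of doses stood apart. In Poria the difference of -0.16 (adjusted p = 0.0345) ended without High replicate 1, where TF was lowest at 3720.2 CPM (-0.09, adjusted p = 0.281), and without Low replicate 2 or 3. This Poria call also ended with only the groups compared (adjusted p = 0.131).

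SERPINA6, which encodes corticosteroid-binding globulin, showed its largest dose difference in Poria. It went from 139.7, 136 and 166 CPM at Low to 98.6, 97.2 and 98.2 CPM at High (-0.59, SE 0.05, adjusted p = 5.77e-13), and Medium stood between at 118, 121 and 119.7 CPM. It fell in Glycyrrhiza from 131, 123.1 and 128 to 103, 98.7 and 115 CPM (-0.27, SE 0.05, adjusted p = 9.67e-06). In ginseng it fell from 137, 137 and 144 to 113, 117 and 108 CPM (-0.30, SE 0.05, adjusted p = 7.33e-05). None of these groups overlapped, and the 3 calls held without any 1 library. In PMT the difference was -0.22, without overlap, and did not pass (adjusted p = 0.115).

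The fetuins, neighbours on chromosome 3, did not move alike. AHSG fell in Atractylodis from 1545, 1841 and 1882 CPM to 1426, 1515 and 1534 CPM (-0.24, SE 0.06, adjusted p = 0.00877). That call ended without Atractylodis High replicate 1 or Low replicate 2 or 3 (adjusted p up to 0.113) and with only the groups compared (adjusted p = 0.0976). In Glycyrrhiza AHSG was lower by -0.14 (adjusted p = 0.0366), a call that ended without High replicate 1 or 2 or Low replicate 1 (adjusted p up to 0.137).
AHSG was lowest at the middle dose of Glycyrrhiza, with 1291, 1260 and 1266 CPM against 1397, 1376 and 1467 CPM at High and 1627, 1525 and 1531 CPM at Low. The difference between Medium and High was not tested. FETUB, present at only a few CPM, fell in Poria from 2.57, 3.01 and 2.61 CPM to 1.86, 2.1 and 1.54 CPM (-0.59, SE 0.15, adjusted p = 0.00172). In Glycyrrhiza it was at 1.84, 1.958 and 1.93 CPM at Low and 2.38, 2.36 and 2.27 CPM at High, and the difference of 0.29 did not pass (adjusted p = 0.0799).

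GPC3, the hepatoma surface proteoglycan, passed between High and Low in Glycyrrhiza alone of the 6 replicated extracts. There it went from 108, 105 and 102 CPM to 111, 113 and 116 CPM (0.11, SE 0.04, adjusted p = 0.0276). That call ended without High replicate 2 or 3 or Low replicate 2 or 3 (adjusted p up to 0.133) and with no filter on low counts (adjusted p = 0.254). The Poria difference was -0.06 and did not pass.

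SPP1, the osteopontin gene, was higher at High than at Low in 5 of the 6 replicated extracts. Its Medium level was not above Low in 3 of them: the means were 383 against 392 CPM in PMT, 335 against 343 in Atractylodis and 354 against 361 in ginseng, and none of these differences passed. In Poria it went from 347, 322 and 362 CPM to 918, 769 and 715 CPM (1.22, SE 0.07, adjusted p = 3.87e-18), a ratio of 2.33. Only 3.6% of all genes tested had a larger absolute difference there. In ginseng it went from 393, 318 and 371 CPM to 537, 588 and 544 CPM (0.63, SE 0.07, adjusted p = 4.79e-08).
In PMT it went from 394 and 391 CPM to 596 and 572 CPM (0.57, SE 0.09, adjusted p = 0.000116). In SDT it went from 378, 389 and 399 CPM to 544, 549 and 524 CPM (0.47, SE 0.07, adjusted p = 4.6e-05), and in Atractylodis from 348, 331 and 352 CPM to 500.2, 444 and 519 CPM (0.51, SE 0.07, adjusted p = 4.86e-06). High and Low libraries did not overlap in any of these 5 extracts, and the calls held without any 1 library.
Glycyrrhiza differed in shape. SPP1 was at 443, 484 and 467 CPM at Low, 675, 571 and 696 CPM at Medium and 474, 467 and 462 CPM at High. The High and Low groups overlapped (0.01, SE 0.07, adjusted p = 0.929), while Medium was above Low by 0.48 (SE 0.07, adjusted p = 1.3e-05). Medium and High did not overlap, and the difference between them was not tested.

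Whether the dose response differed between Glycyrrhiza and Poria was tested as the difference of their High minus Low differences. It passed for 9 of the 10 members, where 45.6% of all genes passed. AFP (-0.82), TTR (-0.94), TF (-0.46), AHSG (-0.27) and SPP1 (-1.21) were lower in Glycyrrhiza relative to Poria, and RBP4 (0.40), SERPINA6 (0.31), FETUB (0.88) and GPC3 (0.17) were higher. TTR and RBP4 passed in both extracts with opposite signs. ALB was the exception in this fit: it was lower at High in both, and the difference of -0.15 did not pass (adjusted p = 0.0698, 95% interval -0.29 to -0.02). That interval is not adjusted over genes. All 10 members passed, ALB among them, in at least 1 fit with a library left out and in at least 1 other alternative. A like response of ALB in the 2 extracts was therefore not shown. The GPC3 difference ended without Poria High replicate 1, Poria Low replicate 2, or Glycyrrhiza High or Low replicate 3 (adjusted p up to 0.0902).

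**Figure D2:**
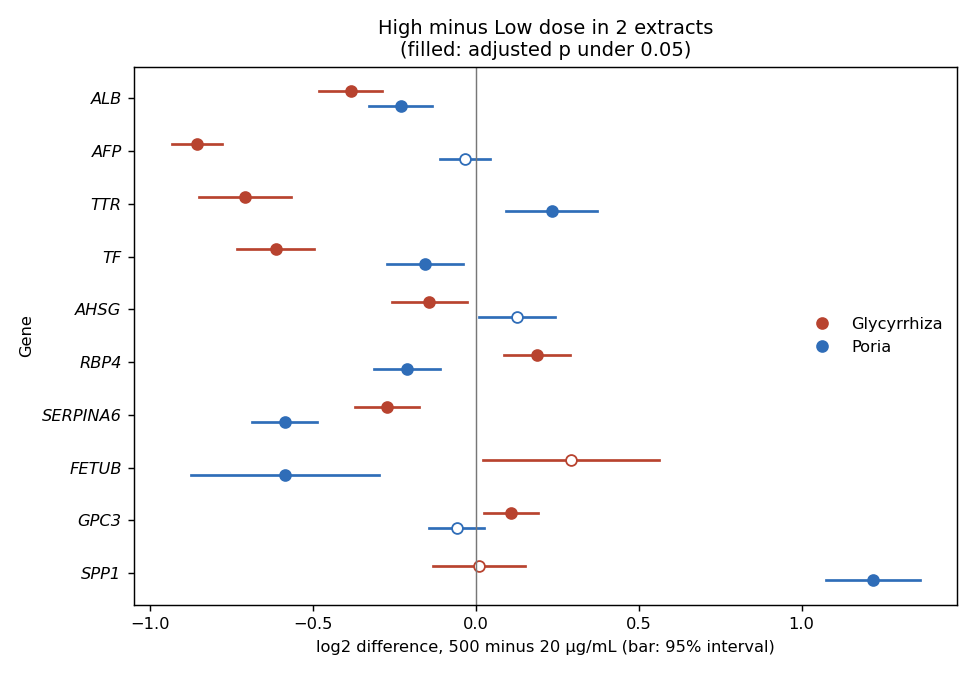
log2 difference of 500 minus 20 µg/mL (horizontal axis) for the 10 genes (vertical axis) in Glycyrrhiza (red) and Poria (blue), with 95% intervals as bars, filled where the adjusted p was under 0.05 and open otherwise. AFP is at -0.86 in Glycyrrhiza and -0.03 in Poria, and SPP1 at 0.01 and 1.22.

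At the middle dose fewer members moved. Against 20 µg/mL, 100 µg/mL of Glycyrrhiza changed 6 members (ALB, AFP, TTR, AHSG and SERPINA6 lower, SPP1 higher), where 3.5% of all genes passed. Poria at 100 µg/mL changed 4 (ALB, RBP4 and SERPINA6 lower, SPP1 higher), where 15.5% passed. SERPINA6 differed by -0.30 in Poria (adjusted p = 1.53e-05) and by -0.23 in Glycyrrhiza (adjusted p = 0.0028). The Poria call of RBP4 ended without Medium replicate 1 or 3 or Low replicate 1 or 3 (adjusted p up to 0.265), with RLE scaling (adjusted p = 0.0503), with no filter (adjusted p = 0.0726) and with only the groups compared (adjusted p = 0.249). That of ALB ended without Medium replicate 1, 2 or 3 or Low replicate 3 (adjusted p up to 0.147) and with only the groups compared (adjusted p = 0.16), as did that of SPP1 with only the groups compared (adjusted p = 0.0606). The AFP call in Glycyrrhiza ended without any 1 library, as given above. TTR fell by 0.35 on the log2 scale in Glycyrrhiza (adjusted p = 0.0014) and was 0.17 higher in Poria without passing (adjusted p = 0.12).
No member passed in SDT, PMT, Atractylodis or ginseng with edgeR or with DESeq2. There the share of all genes that passed with edgeR was 0.00614% in SDT and 0% in PMT, 0% in Atractylodis and 0% in ginseng. At an unadjusted p under 0.05 there was 1 member in SDT (ALB), 1 in PMT (SERPINA6), 0 in Atractylodis and 2 in ginseng (TTR and SERPINA6). The share of all genes at that unadjusted p was 4.83% in SDT, 5.17% in PMT, 4.37% in Atractylodis and 4.44% in ginseng.

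Against vehicle, SPP1 was higher and ALB and GPC3 were lower with most extracts. These 18 comparisons share the same 3 vehicle libraries, so they are not independent of each other. At 500 µg/mL, 6 members passed with SDT (34.3% of all genes passed), 7 with PMT (29.3%), 8 with Poria (51.3%), 5 with Atractylodis (33.9%), 8 with Glycyrrhiza (61.3%) and 9 with ginseng (36.3%). At 100 µg/mL, 6 passed with SDT (35.9%), 5 with PMT (29.7%), 8 with Poria (38.7%), 4 with Atractylodis (28.2%), 10 with Glycyrrhiza (34.8%) and 5 with ginseng (29.7%). At 20 µg/mL, 4 passed with SDT (35.8%), 4 with PMT (31%), 2 with Poria (19.2%), 3 with Atractylodis (26.8%), 7 with Glycyrrhiza (29.9%) and 5 with ginseng (33.5%).

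The vehicle libraries held 10844, 10911 and 11629 CPM of ALB, and 6 extracts at 500 µg/mL stood below them. The ALB difference from vehicle at High was -0.40 in SDT, -0.31 in PMT, -0.32 in Poria, -0.25 in Atractylodis, -0.69 in Glycyrrhiza and -0.33 in ginseng, with adjusted p at most 9.97e-05. The GPC3 difference, from vehicle libraries of 129, 129.7 and 124 CPM, ran from -0.13 in Poria Low to -0.38 in Glycyrrhiza Medium over the 18 comparisons and passed in each. Its call in Poria Low ended without Vehicle replicate 1 or 2 or Poria Low replicate 1, 2 or 3 (adjusted p up to 0.137), with no filter (adjusted p = 0.194) and with only the groups compared (adjusted p = 0.18). It also ended in Atractylodis Low without its replicate 1 (adjusted p = 0.108), with no filter (adjusted p = 0.0754) and with only the groups compared (adjusted p = 0.0516), and in PMT Low and PMT Medium without replicate 2 of each (adjusted p = 0.0505 and 0.0859). SPP1, at 310.2, 301 and 309 CPM in vehicle, was higher by 1.38 in Poria High, 1.08 in Glycyrrhiza Medium, 0.93 in PMT High, 0.86 in ginseng High, 0.81 in SDT High, 0.67 in Atractylodis High and 0.61 in Glycyrrhiza High. It did not pass in Poria Low (0.16, adjusted p = 0.11), Atractylodis Low (0.16) or Atractylodis Medium (0.13).
AFP, at 13387, 13044 and 13143 CPM in vehicle, was lower in Glycyrrhiza High by -0.87 (adjusted p = 2.2e-23), in Glycyrrhiza Medium by -0.15 and in ginseng High by -0.13, and at 0.10 in Poria Medium (adjusted p = 0.0339). The Poria Medium call ended without Vehicle replicate 2 or 3 or Poria Medium replicate 2 or 3 (adjusted p up to 0.149), with no filter (adjusted p = 0.103) and with only the groups compared (adjusted p = 0.12). TTR was higher in Poria at each dose, by 0.36, 0.52 and 0.59 from Low to High. It also passed as higher at Low in PMT, Atractylodis and ginseng, and each of these calls ended without Vehicle replicate 2. In Glycyrrhiza Medium and High and in ginseng High, TTR passed as lower than vehicle. RBP4 in Glycyrrhiza High was at -0.05 from vehicle and did not pass (adjusted p = 0.45), whereas at Low it was at -0.23 and at Medium at -0.24, both of which passed. Several calls at 500 µg/mL ended when 1 library was left out: SERPINA6 in SDT without any 1 of the 6 libraries (adjusted p up to 0.121), TF in SDT without SDT High replicate 1 or Vehicle replicate 2 or 3, AHSG in ginseng without ginseng High replicate 2 or 3 or Vehicle replicate 2, AHSG in Poria without Vehicle replicate 1, and FETUB in Poria without Poria High replicate 3. In PMT, the AHSG, TF and RBP4 calls ended without PMT High replicate 2, which had the highest mitochondrial share of all libraries, and RBP4 also without PMT High replicate 3 or Vehicle replicate 1 or 3 (adjusted p up to 0.294 for TF).
Of the calls against vehicle, 14 of 38 at 100 µg/mL and 11 of 25 at 20 µg/mL ended without at least 1 of the libraries compared, beside 8 of 43 at 500 µg/mL. In Glycyrrhiza Medium, where all 10 members passed, FETUB ended without Vehicle replicate 1 or 2 or Glycyrrhiza Medium replicate 1 or 3 (adjusted p up to 0.18), with DESeq2 (adjusted p = 0.119), with no filter (adjusted p = 0.219) and with only the groups compared (adjusted p = 0.0892). TTR ended there without Vehicle replicate 1 or 3 or Glycyrrhiza Medium replicate 1 (adjusted p up to 0.0881). In Atractylodis Medium, RBP4 ended without any 1 library but Medium replicate 1 (adjusted p up to 0.153) and SERPINA6 without any but Medium replicate 3 (adjusted p up to 0.203). SPP1 in ginseng ended at Medium without Vehicle replicate 2 or ginseng Medium replicate 1 or 2 (adjusted p up to 0.107) and at Low without Low replicate 1 (adjusted p = 0.115). The ALB call ended in Atractylodis Medium without Vehicle replicate 3 or Medium replicate 1, and in ginseng Low without Vehicle replicate 3.

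**Figure D3:**
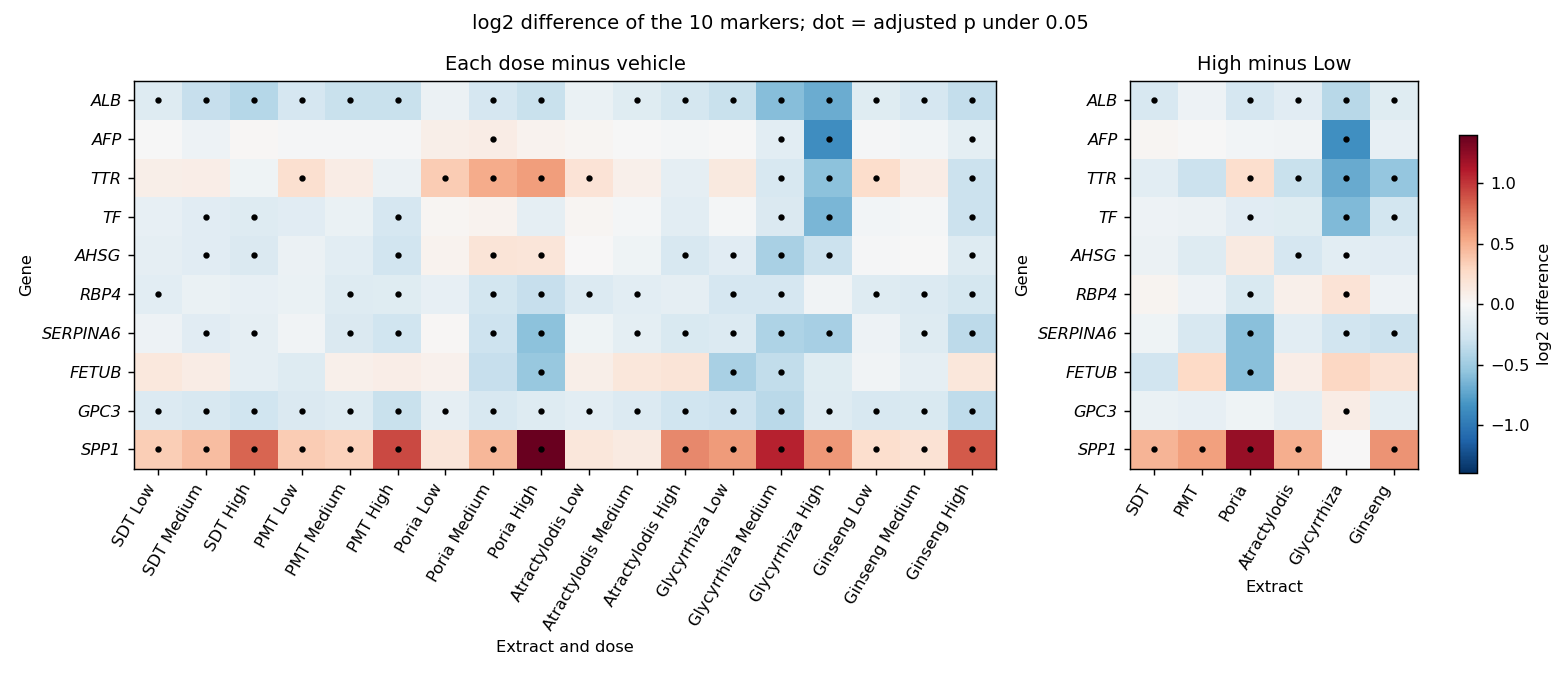
log2 difference (colour) of each of the 10 genes (rows) for each dose of 6 extracts minus vehicle (left) and for High minus Low (right), with a dot where the adjusted p was under 0.05. The SPP1 row is red in 5 of 6 columns on the right, between 0.47 and 1.22, and the ALB row is blue in each column, between -0.38 and -0.08.

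The 2 formulas, both water extracts, were compared at the same dose. No member passed at 500, 100 or 20 µg/mL with edgeR or DESeq2, and the share of all genes that passed with edgeR was 0% at 500, 0% at 100 and 0% at 20 µg/mL. At an unadjusted p under 0.05 there was 1 member at 500 µg/mL (SERPINA6, 0.15 higher in SDT) and 0 at the other doses. The share of all genes at that unadjusted p was 5.36% at 500, 4.3% at 100 and 4.92% at 20 µg/mL. Leaving out FETUB, the differences lay between -0.14 and 0.15 on the log2 scale, and their 95% intervals reached from -0.29 to 0.27. Those of FETUB reached from -0.51 to 0.65, and such intervals do not show that the formulas act alike.

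Angelica and Paeonia had 1 library per dose, so their values carry no replicate check and no test. At 500 µg/mL of Paeonia, 3 members differed from the vehicle mean by a log2 ratio of 0.5 or more, as did 26.8% of all genes: TTR at 251 CPM (0.61), SPP1 at 523 CPM (0.77) and FETUB at 1.34 CPM (-0.93). AFP in that library stood at 9559 CPM (-0.46), below every other library except the 3 of Glycyrrhiza High, and AHSG at 2333 CPM was the highest of all 60 libraries. In the Angelica High library 1 member was past that fold (15.6% of all genes), SPP1 at 477 CPM (0.64), and SERPINA6 stood at 107 CPM (-0.44). No member was past it in the other 4 libraries, where the share of all genes was 10.6% in Angelica Low, 13% in Angelica Medium, 18.2% in Paeonia Low and 12.4% in Paeonia Medium.

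Ratios within a library show how unequally the members changed without any scaling between libraries. The AFP to ALB ratio of counts was 1.19 ± 0.05 (SD, n = 3) in vehicle, 1.46 ± 0.01 in Glycyrrhiza Low and 1.62 ± 0.08 in Glycyrrhiza Medium, but 1.05 ± 0.01 in Glycyrrhiza High. It was 1.58 ± 0.06 in SDT High and 1.53 ± 0.09 in Poria High, and 0.977 in the single Paeonia High library. The TTR to RBP4 ratio was 0.287 ± 0.015 in vehicle, 0.538 ± 0.033 in Poria High and 0.199 ± 0.01 in Glycyrrhiza High, and the libraries of these 3 groups did not overlap.

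**Figure D4:**
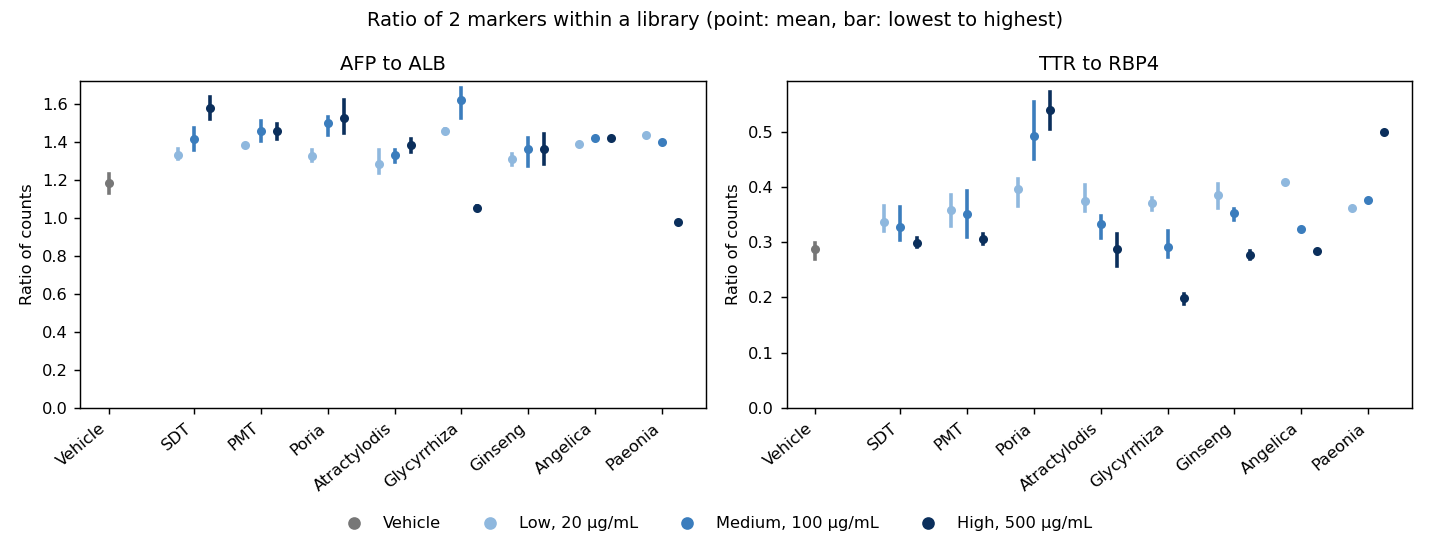
Ratio of AFP to ALB counts (left) and of TTR to RBP4 counts (right) within each library (vertical axes, from 0) for vehicle and each extract (horizontal axis), with a point for the group mean, a bar from the lowest to the highest library and colour for dose. The AFP to ALB ratio of Glycyrrhiza High lies at 1.05, below the vehicle mean of 1.19, and the TTR to RBP4 ratio of Poria High at 0.538.

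Related genes were read from 5 lists, chosen with earlier results of these data known. Their counts are to be read beside the share of all genes that passed between High and Low, 56.3% in Glycyrrhiza (4657 higher, 4510 lower) and 38.5% in Poria (3264 higher, 2998 lower). Between High and Low in Glycyrrhiza, all 4 genes of the albumin family fell: beside ALB and AFP, AFM, which encodes the vitamin E carrier afamin, went from 2.36 ± 0.2 to 0.348 ± 0.078 CPM (SD, n = 3 each) with a difference of -2.71 (adjusted p = 1.18e-13). GC, which encodes the vitamin D binding protein, went from 1.26 ± 0.17 to 0.598 ± 0.152 CPM (-1.04, adjusted p = 8.58e-05). In Poria 3 of the 4 fell, with GC at -1.05 (adjusted p = 4.4e-05) and AFM at -0.56 (adjusted p = 0.0194), and AFP did not pass. The median of the 4 was -0.95 in Glycyrrhiza and -0.39 in Poria, beside 0.0091 and -0.0033 over all genes.

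Among 40 other plasma carriers and inhibitors, 28 fell and 8 rose in Glycyrrhiza (median -0.40; 56.3% of all genes passed), and 22 fell and 4 rose in Poria (median -0.17; 38.5% passed). In Glycyrrhiza SERPINA7, which encodes the thyroxine-binding globulin, fell from 164 to 36.8 CPM (-2.15). The 2 largest changes in Poria were those of KNG1, the kininogen gene (-1.66, from 11.1 to 3.56 CPM), and APOC3, a brake on triglyceride clearance (-0.83, from 65.4 to 36.7 CPM). Of the same 40, 18 fell and 0 rose with ginseng and 13 fell and 0 rose with Atractylodis, where 5.66% and 6.42% of all genes passed. With each formula 1, KNG1, fell, where 1.06% of all genes passed in SDT and 0.516% in PMT.

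Of 20 liver-enriched transcription factors, 13 fell and 4 rose in Glycyrrhiza (median -0.27; 56.3% of all genes passed), with GATA6 at -1.72 (from 1.73 to 0.539 CPM) and CEBPB at 1.43 (from 27 to 73 CPM). In Poria 6 fell and 5 rose (median -0.01; 38.5% of all genes passed), with NR1H4, the bile acid receptor FXR, at -1.35 (from 50.5 to 19.8 CPM) and CEBPA at -1.13 (from 83.4 to 38.1 CPM). Of 24 receptors and partners of the members, 14 were expressed enough to test. In Glycyrrhiza 7 rose and 4 fell (56.3% of all genes passed), with FGF2 at 1.28 and LRP2, the renal and epithelial receptor megalin, at -1.19, both under 0.5 CPM. In Poria 5 rose and 4 fell (38.5% of all genes passed), with ITGB5, an integrin subunit that can take part in binding osteopontin, at 0.55 (from 53.6 to 78.3 CPM). CD44, ITGB3 and STRA6, receptors for osteopontin and RBP4, were among the 10 too low to test.

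Of 20 glypicans and hepatoma or progenitor genes, 18 could be tested. In Glycyrrhiza 10 fell and 1 rose (median -0.44), a share called near the 56.3% of all genes: DKK1, a Wnt inhibitor, went from 75.6 ± 3.4 to 5.03 ± 0.54 CPM (-3.91, adjusted p = 1.93e-33), and PEG10, a retrotransposon-derived gene often high in hepatoma, from 4737 ± 109 to 722.5 ± 58.2 CPM (-2.71, adjusted p = 1.09e-34). In Poria 6 fell and 5 rose (median -0.06; 38.5% of all genes passed), with GPC2 at -1.55 (from 0.944 to 0.323 CPM) and GPC6 at -0.81 (from 88.9 to 50.8 CPM).

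Genes most like 3 of the members across the 19 replicated groups were found among 9008 genes with a mean of 10 CPM or more, by Pearson's r of the group means on the log2 scale. These are descriptions, since the groups share the vehicle, set codes and doses. ALB was most like GLUD1 (r = 0.92), FRMD8, TSPAN13, C4BPA and ITIH1 (r = 0.89). AFP was most like NSMCE4A (r = 0.98), DHRS2, VAV3, MLEC and ALDH18A1 (r = 0.97), and a single group, Glycyrrhiza High, stood far below the other 18 in AFP. SPP1 was most like NRCAM (r = 0.88), PITRM1, NLN, PSMD11 and BAZ1A (r = 0.87). Among the members themselves, AFP and TF had r = 0.88 and TTR and AHSG r = 0.84, while SPP1 and SERPINA6 had r = -0.82.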

How the data were processed

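RNA was sequenced as 100 bp pairs from a directional MGI library made with 1 µg of RNA, per the labels' protocols. Reads were processed with FastQC 0.11.9, Trim Galore 0.6.5, STAR 2.7.3a and RSEM 1.3.3 on GRCh38, per the submitters' processing notes. The annotation release and the strand setting of the counting are not given in the sources used here. The authors deposited RSEM expected counts per gene, of which 23.4% of nonzero values were not whole (tolerance 0.005). They were rounded here to whole numbers. The table has 60 columns that matched the samples and 210 further columns of per-sample values that were not used.

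Counts of the 54 libraries of the 19 replicated groups were fitted together with edgeR 4.0.16 in R 4.3.3, with its default filter on low counts (16286 of 60675 genes kept), TMM scaling and the quasi-likelihood test. P-values were adjusted by Benjamini-Hochberg over all genes tested, with a threshold of 0.05. Printed levels are CPM of the TMM-scaled library. Standard errors come from the F statistic, and 95% intervals are 1.96 standard errors. Depth limits FETUB most, and the replicate coefficient of variation from the common dispersion was 5.62%. No 2 libraries held identical values. Groups with 1 library were compared with the vehicle mean by a log2 ratio with a prior count of 2.

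The members and lists were chosen with earlier results of these data known. The text names all 10 members, the 2 largest called genes of each list in Glycyrrhiza and Poria, and the 5 genes most like ALB, AFP and SPP1. A few results that this rule would name are not reported here. The receptor genes too low to test and the promoter motif were chosen after values or sequences were seen. Symbols were found for 56558 gene identifiers and positions for 57055. Alternatives were DESeq2 1.42.0, RLE scaling, no filter, scaling without mitochondrial genes, only the groups compared, the replicate number as a block, and each library left out. The tests were tried on simulated counts.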

Additional observations from a re-analysis of the deposited data

Results flagged for a closer look

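For 9 members the High minus Low difference was not the same in Glycyrrhiza and Poria by the test of the difference itself (edgeR's quasi-likelihood test, adjusted over all genes; 3 libraries per dose and extract). On the log2 scale, Glycyrrhiza minus Poria was -0.822 for AFP (adjusted p = 1.15e-16), -0.943 for TTR (adjusted p = 1.45e-10), -0.458 for TF (adjusted p = 1.65e-05), -0.27 for AHSG (adjusted p = 0.00725) and -1.21 for SPP1 (adjusted p = 1.64e-13). It was 0.398 for RBP4 (adjusted p = 1.41e-05), 0.315 for SERPINA6 (adjusted p = 0.000325), 0.88 for FETUB (adjusted p = 0.000346) and 0.167 for GPC3 (adjusted p = 0.0214). FETUB had only 34 to 98 counts per library, and its High minus Low difference in Glycyrrhiza alone did not pass. The mean of FETUB was 1.91 CPM in Glycyrrhiza Low, beside 2.73 CPM in Poria Low and 2.63 CPM in vehicle. The 2 extracts carry different set codes, so a difference in dose response between sets cannot be told apart from one between extracts.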

How the results depend on the processing

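None of the 152 member results that passed changed direction under any alternative, and the direction of the other member results was not compared. Of 152 member results that passed, 151 still passed with DESeq2, 150 with RLE scaling, 140 with no filter, 152 with scaling without mitochondrial genes, 137 when only the groups compared were fitted and 151 with the replicate block. Over 948 fits of these results with 1 library left out, 816 still passed. With only the groups compared, members called between High and Low went from 7 to 5 in Poria, 5 to 4 in ginseng, 4 to 2 in Atractylodis and 2 to 1 in SDT. They went from 1 to 2 in PMT with no filter and with DESeq2, where calls over all genes with DESeq2 went from 84 to 117. With the replicate block within a set code, members called went from 1 to 2 in PMT, from 4 to 7 in Atractylodis and from 5 to 8 in ginseng. Calls over all genes in that block fit went from 84 to 117 in PMT, 1046 to 1255 in Atractylodis and 922 to 1142 in ginseng. Same-numbered libraries of 1 set code had correlations of -0.111 to 0.162 (median 0.016), and 23 of 51 libraries correlated best with their own number, so the numbers were not taken to pair the samples. With 1 library left out, the counts between High and Low were 1 to 2 in SDT, 2 to 6 in Atractylodis, 6 to 7 in Poria, 6 to 7 in Glycyrrhiza and 4 to 5 in ginseng. Where this left 1 PMT library in a group, that library was assumed to vary like the other groups. Calls over all genes moved in other fits as well, though little between High and Low in ginseng with only the groups compared (922 to 909). With only the groups compared, those between High and Low went from 173 to 102 in SDT, 84 to 42 in PMT, 1046 to 338 in Atractylodis and 6262 to 3977 in Poria, those between Medium and Low from 2529 to 854 in Poria and 570 to 941 in Glycyrrhiza, and those of Poria Low against vehicle from 3127 to 1037. With no filter, 173 in SDT became 408 and 84 in PMT became 243, and the 7 comparisons with 0 or 1 call gave 54 to 122. Single libraries moved them too: between High and Low, without 1 library, SDT gave as few as 89 (without Low replicate 3), PMT 29 (Low replicate 3), Atractylodis 591 (Low replicate 3) and ginseng 525 of 922 (High replicate 3), and PMT High against vehicle went from 4765 to 1908 without PMT High replicate 2. Glycyrrhiza Medium against Low gave 324 without Low replicate 3, and Poria Low against vehicle 1649 without Vehicle replicate 2.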
